A study of Mus musculus with 19 samples.

Results

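Perforin and granzymes A, B, C, K and M are the contents of the cytotoxic granule that were followed here across the life of a CD8 T cell. The 6 genes, Gzma, Gzmb, Gzmc, Gzmk, Gzmm and Prf1, are 6 of the 19938 genes measured. They were taken as the array probe sets annotated to 1 of these symbols and to no other gene, and each had a single such probe set, so no choice by brightness was needed.

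The arrays held RNA from purified mouse CD8 T lymphocytes on an Affymetrix mouse gene array. T-betKO Stat5ca cells recovered after transfer (n = 3; days 14, 14 and 54) lacked T-bet, the factor encoded by Tbx21, and had been activated with antibodies to CD3 and CD28. Their labels name the genotype T-BetKO and the strain C57BL/6 beside a B10.D2 background, and another labelling protocol, while the series text calls them TCRP1A. All other groups were TCRP1A cells, whose T-cell receptor is transgenic and whose background is Rag-1-/- and B10.D2. They were Stat5ca cells after transfer (n = 4; day 20), control cells after transfer (n = 2; days 18 and 120), Stat5ca effector cells at 72 h (n = 2), control effector cells at 72 h (n = 4) and naive cells (n = 4). Effector cells had met their cognate antigen for 72 h, Stat5ca is a constantly active form of Stat5, and by the labels GFP sorting was applied to the Stat5ca effectors. Transferred cells were recovered from the spleen and lymph nodes of congenic hosts. The carrying of the vector and, at 72 h, the GFP sorting cannot be told apart from Stat5ca. Days in the host also differed between transferred Stat5ca cells and transferred control cells. Strain, stimulus, days in the host and labelling protocol cannot be told apart from the loss of T-bet.

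Perforin makes pores in the membrane of a target cell, and granzymes are serine proteases that enter through them. Granzyme B cleaves after aspartate and starts caspase-driven death, granzymes A and K are tryptases, and granzyme M cleaves after methionine or leucine and is well known from natural killer (NK) cells. Granzyme C is a rodent relative of granzyme B, encoded in a cluster of closely related genes. Interleukin 2 acts through Stat5, and T-bet and its relative Eomes are known regulators of the cytotoxic genes in CD8 T cells.

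The genes lie on 3 chromosomes. Gzma and Gzmk are neighbours on chromosome 13, Gzmm and Prf1 lie apart on chromosome 10, and Gzmb and Gzmc belong to a cluster on chromosome 14 that also holds Gzmd, Gzme, Gzmf, Gzmg and Gzmn. The promoters of the 6 genes are printed below because the study altered Stat5 and T-bet, and Gzmd is printed as a close relative of Gzmc. Each runs from 250 bases before to 50 bases after a RefSeq transcript start (GRCm38.p6), and Gzmm has 2 such starts. Capitals mark the STAT motif TTCNNNGAA, the T-box motif GGTGTGA, the RUNX motif TGTGGT and the CRE motif TGACGT, searched on both strands.
Gzma, chr13:113100932-113101231, minus strand: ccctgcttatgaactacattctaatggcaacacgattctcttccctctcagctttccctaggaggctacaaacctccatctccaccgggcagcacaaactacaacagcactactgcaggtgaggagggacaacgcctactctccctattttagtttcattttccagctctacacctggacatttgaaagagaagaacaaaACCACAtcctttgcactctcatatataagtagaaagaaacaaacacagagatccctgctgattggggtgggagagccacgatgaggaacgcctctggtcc
Gzmk, chr13:113180916-113181215, minus strand: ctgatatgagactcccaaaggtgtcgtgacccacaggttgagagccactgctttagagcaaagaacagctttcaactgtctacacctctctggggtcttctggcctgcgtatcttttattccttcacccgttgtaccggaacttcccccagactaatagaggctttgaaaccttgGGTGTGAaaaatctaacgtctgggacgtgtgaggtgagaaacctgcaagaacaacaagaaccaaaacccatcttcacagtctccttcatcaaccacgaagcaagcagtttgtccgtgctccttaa
Gzmm, upstream start, chr10:79688770-79689069, plus strand: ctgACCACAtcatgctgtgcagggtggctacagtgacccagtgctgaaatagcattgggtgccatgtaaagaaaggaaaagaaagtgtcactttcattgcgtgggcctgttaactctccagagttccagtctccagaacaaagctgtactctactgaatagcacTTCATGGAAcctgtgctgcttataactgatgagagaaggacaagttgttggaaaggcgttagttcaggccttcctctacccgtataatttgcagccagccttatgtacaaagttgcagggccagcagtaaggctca
Gzmm, downstream start, chr10:79693576-79693875, plus strand: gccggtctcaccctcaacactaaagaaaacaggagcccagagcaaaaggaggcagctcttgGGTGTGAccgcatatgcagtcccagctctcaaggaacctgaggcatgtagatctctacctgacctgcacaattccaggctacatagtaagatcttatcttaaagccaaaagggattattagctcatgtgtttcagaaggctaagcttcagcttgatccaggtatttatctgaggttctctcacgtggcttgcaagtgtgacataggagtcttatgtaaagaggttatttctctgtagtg
Prf1, chr10:61297586-61297885, plus strand: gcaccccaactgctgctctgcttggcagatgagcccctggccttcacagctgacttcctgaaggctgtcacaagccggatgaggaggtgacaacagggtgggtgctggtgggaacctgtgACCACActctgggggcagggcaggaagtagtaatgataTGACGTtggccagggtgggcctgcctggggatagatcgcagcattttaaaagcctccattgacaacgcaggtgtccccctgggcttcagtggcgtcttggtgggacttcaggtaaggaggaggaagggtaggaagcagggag
Gzmb, chr14:56262285-56262584, minus strand: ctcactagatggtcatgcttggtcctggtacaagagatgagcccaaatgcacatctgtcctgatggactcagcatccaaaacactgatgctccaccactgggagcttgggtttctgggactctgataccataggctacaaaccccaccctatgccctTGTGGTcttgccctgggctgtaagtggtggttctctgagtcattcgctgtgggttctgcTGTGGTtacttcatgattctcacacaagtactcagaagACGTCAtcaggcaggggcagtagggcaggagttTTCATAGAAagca
Gzmc, chr14:56234608-56234907, minus strand: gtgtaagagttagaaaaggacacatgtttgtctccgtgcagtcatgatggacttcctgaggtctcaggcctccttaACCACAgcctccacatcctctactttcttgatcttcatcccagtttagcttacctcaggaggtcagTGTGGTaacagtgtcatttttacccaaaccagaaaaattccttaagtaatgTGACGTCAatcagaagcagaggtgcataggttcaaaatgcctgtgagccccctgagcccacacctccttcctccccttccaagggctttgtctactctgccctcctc
Gzmd, chr14:56132544-56132843, minus strand: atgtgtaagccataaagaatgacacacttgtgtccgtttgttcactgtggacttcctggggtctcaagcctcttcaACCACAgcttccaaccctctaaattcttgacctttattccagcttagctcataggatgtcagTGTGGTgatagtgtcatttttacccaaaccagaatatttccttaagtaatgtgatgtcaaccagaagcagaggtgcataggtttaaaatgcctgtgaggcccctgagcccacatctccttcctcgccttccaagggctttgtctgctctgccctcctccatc
In these windows the STAT motif was found in Gzmb, as TTCATAGAA at bases 38 to 46 counted from the start, and in the upstream window of Gzmm, as TTCATGGAA at bases −86 to −78. The T-box motif was found in Gzmk, at bases −75 to −69, and in the downstream window of Gzmm, at bases −189 to −183. The RUNX motif stood in 5 of the 6 genes' first windows, all but that of Gzmk. The CRE motif stood in Prf1, Gzmb and Gzmc, and in Gzmc its copies on both strands overlap. Of 32817 RefSeq promoter windows of the same length, 8.29% hold the STAT motif, 3.98% the T-box motif, 16.8% the RUNX motif and 7.51% the CRE motif. The Gzmc window matched that of Gzmd at 253 of 294 aligned bases (86.1%) and those of Gzme, Gzmf and Gzmg at 86.7%, 86.9% and 86.8%. The genes resemble each other, so the Gzmc probe set may take up signal from its neighbours, and its values are uncertain to that extent. The probe sets of those 5 neighbours gave values between 4.44 and 6.88, under the background level of 7.32 in 95 of 95 readings. That level is the 95th percentile of 1190 olfactory and vomeronasal receptor genes, genes not known to be active in T cells.

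T-cell markers were high on every array, with a mean level of 11.74 to 12.70 over the 11 measured, and Cd8a lay between 12.01 and 13.27. Markers of other cell types gave signal as well, and the myeloid signal was strong on some arrays, among them both transferred control arrays. The mean of 18 myeloid markers lay at 10.81 to 12.47 in T-betKO Stat5ca cells, 9.61 to 10.68 in transferred Stat5ca cells, 12.44 to 12.63 in transferred control cells, 7.01 to 7.15 in Stat5ca effectors, 7.99 to 8.76 in control effectors and 7.67 to 11.88 in naive cells. The mean of 6 mast cell and basophil markers lay at 7.27 to 8.20 in T-betKO Stat5ca cells, 5.99 to 6.44 in transferred Stat5ca cells, 6.08 to 7.40 in transferred control cells, 6.03 to 6.17 in Stat5ca effectors, 6.95 to 7.67 in control effectors and 6.00 to 6.91 in naive cells. The mean of 5 NK markers lay at 7.62 to 7.92 in T-betKO Stat5ca cells, 8.46 to 9.47 in transferred Stat5ca cells, 7.42 to 7.62 in transferred control cells, 6.28 to 6.35 in Stat5ca effectors, 6.08 to 6.23 in control effectors and 6.57 to 7.94 in naive cells. The mean of 8 B-cell markers stayed between 6.90 and 7.33 on all 19 arrays. In these bulk samples, fewer cells of a type and less RNA per cell cannot be told apart. Tbx21 lay at 8.18, 8.19 and 8.34 in T-betKO Stat5ca cells, against 11.77 to 11.97 in transferred Stat5ca cells, and Stat5a was higher in Stat5ca cells than in control cells at 72 h (1.50 ± 0.13, SE) and after transfer (1.44 ± 0.13), as log2 differences. In the T-betKO cells, which also carry Stat5ca, Stat5a read 10.86, 10.89 and 11.06, against 11.54 to 11.81 in transferred Stat5ca cells. Arrays within some groups paired off: control effector arrays 1 and 4 were closer to each other (SD of the difference over genes 0.14) than to arrays 2 and 3, naive arrays 34 and 36 were close (0.19), and T-betKO arrays 39 and 40 were close (0.19), with array 41 farther (0.48 and 0.47). Control effector arrays 2 and 3 were close as well (0.19). Transferred Stat5ca arrays 11, 12 and 14 lay at 0.14 to 0.18 from each other, with array 13 farther (0.23 to 0.25).

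The granule genes were among the more variable genes of the series. Gzmb spanned 6.94 log2 units over the 19 arrays, a range that 0.0903% of genes exceeded, and Gzma spanned 5.14. Gzmk spanned 4.04, Gzmc 3.68, Gzmm 3.55 and Prf1 2.70, a range that 5.22% of genes exceeded. Values are log2 signals, and levels of different genes are not set against each other because each comes from its own probe set.

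**Figure D1:**
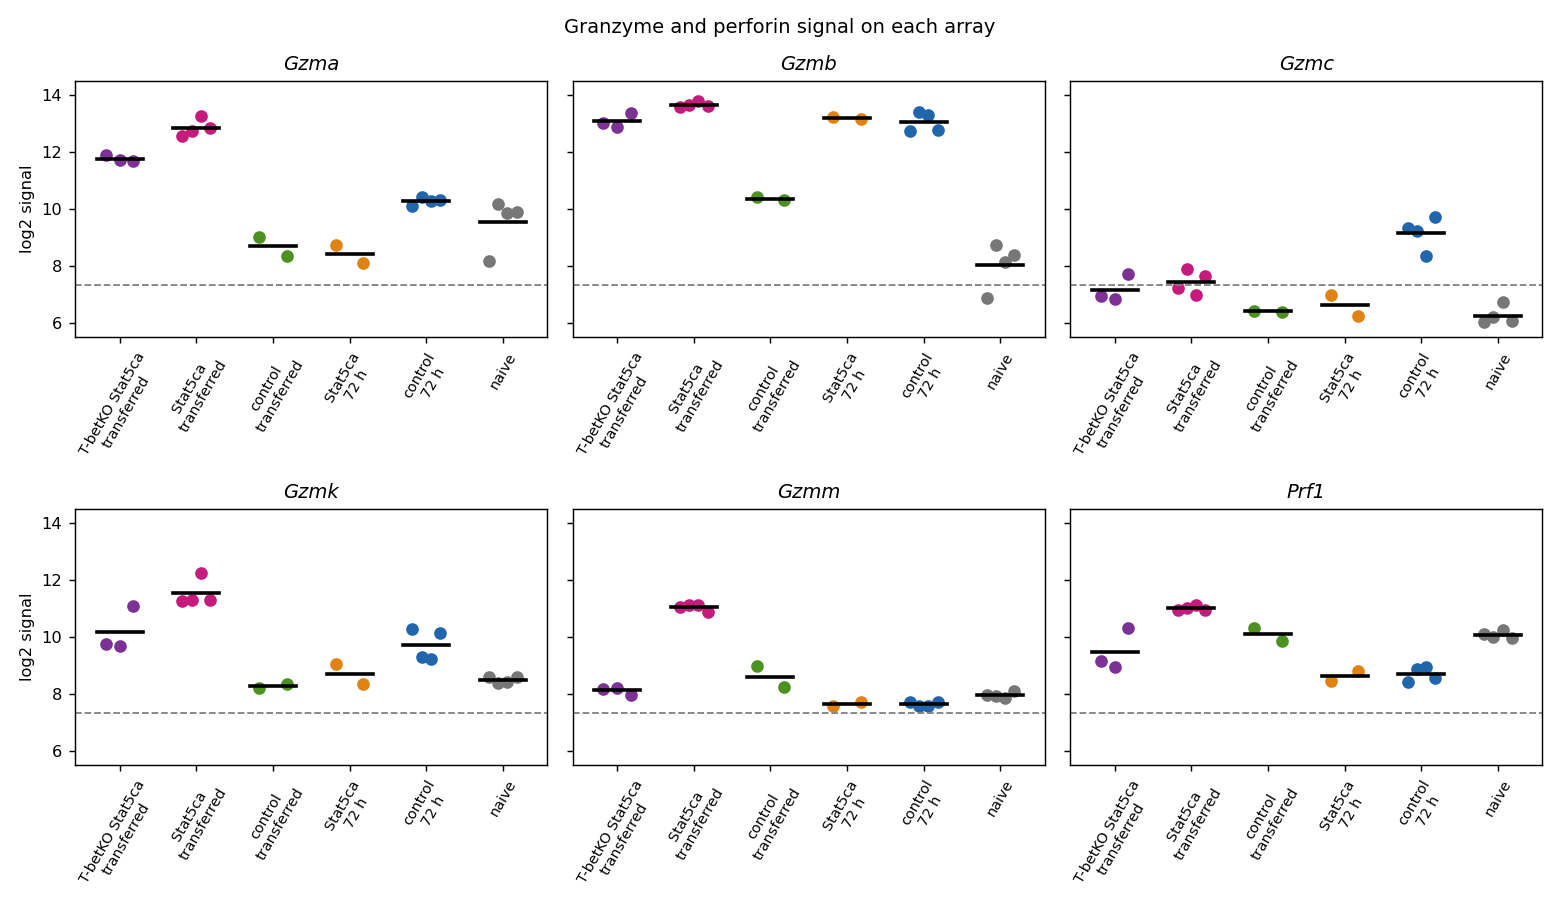
Log2 signal (vertical axis) of each of the 6 genes on each array (points), by group along the horizontal axis, with group means as black bars and the background level of 7.32 as a dashed line. Gzma, Gzmk, Gzmm and Prf1 are highest in transferred Stat5ca cells, Gzmb has means of 13.06 to 13.66 in 4 of the 6 groups, and Gzmc is highest in control effectors at 72 h.

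Control effectors at 72 h held more Gzmb, Gzmc and Gzmk and less Prf1 than naive cells, the comparison of activated with naive cells. Gzmb read 12.73, 13.40, 13.31 and 12.79 in control effectors, against 6.86, 8.75, 8.13 and 8.37 in naive cells. The groups lay far apart, and one naive array was under the background level. The difference was 5.03 ± 0.29 on the log2 scale (SE), 32.7-fold, with an adjusted p of 6.97e-09 by limma. Gzmc read 9.36, 9.22, 8.36 and 9.72 in control effectors, against 6.05, 6.21, 6.72 and 6.06 in naive cells, which all lie under the background level. It rose by 2.90 ± 0.27 (adjusted p = 6.88e-07), and by 1.85 counted from the background. Gzmk read 10.26, 9.29, 9.22 and 10.14 in control effectors, against 8.58, 8.38, 8.43 and 8.58 in naive cells, a rise of 1.24 ± 0.26 (adjusted p = 0.00135).

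Prf1 moved the other way. It read 8.40, 8.88, 8.93 and 8.57 in control effectors, against 10.10, 9.98, 10.23 and 9.96 in naive cells, and it fell by 1.37 ± 0.13 on the log2 scale (adjusted p = 8.87e-07 by limma). Perforin message lay lower, and granzyme B message higher, on each control effector array than on each naive array. Gzma, at 10.13 to 10.41 in control effectors and 8.18 to 10.17 in naive cells, differed by 0.75 ± 0.33 (adjusted p = 0.0765), and Gzmm by −0.30 ± 0.12 (adjusted p = 0.0584), so neither was called. Of the 6 genes, 3 rose, where 22% of all genes rose, and 1 fell, where 24.9% of all genes fell. Their median difference was 0.99, against −0.09 over all genes. Gzma was called without naive array 34 (0.97, adjusted p = 0.0319) and over the 22 alternatives its adjusted p ran from 0.000106 to 0.571.

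Of the companion genes, other killing molecules rose in 4 of 5 cases, among them Fasl, the ligand of the death receptor Fas (1.88 ± 0.26), and Tnf (0.97 ± 0.20). Of 14 exocytosis genes, 5 rose and 2 fell. Rab27a, which brings granules to the membrane, rose by 0.72 ± 0.12, and Lyst, a regulator of lysosome size, fell by 0.51 ± 0.10. Of the granzyme inhibitors 3 of 5 rose and 1 fell: Serpinb6b by 1.78 ± 0.20, and Serpinb1a by −2.10 ± 0.45. Il2ra, the interleukin 2 receptor alpha chain (4.04 ± 0.29), Tbx21 (2.56 ± 0.12) and Eomes (1.85 ± 0.36) rose among 7 of 11 regulators. Of 6 mast cell and basophil markers 3 rose, among them Mcpt8, a basophil protease (2.55 ± 0.42), and 2 fell. Of 5 NK markers 4 fell, among them Ncr1, a receptor of NK cells (−3.01 ± 0.53), and 9 of 18 myeloid markers fell. Their part in the differences of the granule genes was not tested.

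At 72 h, Stat5ca effectors carried less Gzma and Gzmc than control effectors, while Gzmb, Gzmm and Prf1 were not called. Gzma read 8.73 and 8.12 in Stat5ca effectors, against 10.13, 10.41, 10.28 and 10.33 in control effectors, a difference of −1.86 ± 0.41 (adjusted p = 0.0159 by limma). Gzmc read 6.98 and 6.26 in Stat5ca effectors, both under the background level, against 8.36 to 9.72 in control effectors. It fell by 2.54 ± 0.33 (adjusted p = 0.000682), and by 1.85 counted from the background. Gzmb read 13.25 and 13.17 in Stat5ca effectors, inside the range of 12.73 to 13.40 of control effectors, and differed by 0.15 ± 0.35 (adjusted p = 0.866). The difference of Gzmk was −1.02 ± 0.32 (adjusted p = 0.0731), of Prf1 −0.07 ± 0.16 and of Gzmm 0.00 ± 0.15.

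Thus 2 of the 6 genes fell, where 3.35% of all genes fell, and none rose, where 2.37% of all genes rose. Some basophil and myeloid markers were also lower in Stat5ca effectors. Of 18 myeloid markers 2 were called lower and 0 higher (median difference −1.03). Of 6 mast cell and basophil markers 2 were called lower and 0 higher (median difference −0.75). Mcpt8 read 6.58 and 6.23 in Stat5ca effectors, against 10.29, 8.89, 8.67 and 10.28 in control effectors, and the myeloid marker Lyz2 differed by −5.59 ± 0.60. Ctsh, a cathepsin that processes granzymes and is abundant in myeloid cells, differed by −2.65 ± 0.53. The call of Gzma was lost without Stat5ca effector array 9 (−2.17, adjusted p = 0.0513) or 10 (−1.56, 0.248), and without control arrays 1 and 4 (−1.92, 0.0844). With the mast cell and basophil marker level as a covariate the calls of both genes were lost (Gzma −1.08, adjusted p = 0.550; Gzmc −2.05, 0.0680). Over the 19 alternatives the adjusted p ran from 0.000213 to 0.550 for Gzma and from 1.89e-05 to 0.0680 for Gzmc.

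Transferred control cells lay between effectors and naive cells in Gzmb, and their Prf1 overlapped that of naive cells. Gzmb read 10.42 and 10.32 in transferred control cells, below all 4 control effector arrays (12.73 to 13.40) and above all 4 naive arrays (6.86 to 8.75). It fell by 2.69 ± 0.35 against control effectors (adjusted p = 2.67e-05 by limma) and was higher by 2.34 ± 0.35 than in naive cells (adjusted p = 0.000922). The call against naive cells was lost with only these groups in the fit (adjusted p = 0.0617; 6.92e-06 to 0.0617 over the 19 alternatives). Prf1 read 10.31 and 9.86 in transferred control cells, against 9.96 to 10.23 in naive cells, a difference of 0.02 ± 0.16 (adjusted p = 0.936), and 8.40 to 8.93 in control effectors, a difference of 1.39 ± 0.16 (adjusted p = 7.26e-06). Gzmm read 8.97 and 8.23 in transferred control cells, against 7.56 to 7.72 in control effectors and 7.84 to 8.09 in naive cells. The rise over naive cells of 0.66 ± 0.15 (adjusted p = 0.0098) was not called without transferred control array 30 (0.29, adjusted p = 0.185; 0.000962 to 0.185 over the 19 alternatives).

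Against control effectors, 4 of the 6 genes fell and 2 rose, where 24.4% of all genes fell and 13.1% rose. Gzma, at 9.04 and 8.37 in transferred control cells, fell by 1.58 ± 0.41 against control effectors (adjusted p = 0.00599 by limma), a call lost without transferred control array 32 (−1.25, adjusted p = 0.0981; 2.52e-05 to 0.0981 over the 19 alternatives). Gzmc at 6.44 and 6.39 was under the background level, and Gzmk at 8.21 and 8.33 fell by 1.46 ± 0.32 against control effectors (adjusted p = 0.00172), a call lost with the myeloid marker level as a covariate (−1.41, adjusted p = 0.0543; 7.66e-05 to 0.0543 over the 19 alternatives). In this comparison 14 of 18 myeloid markers and 4 of 5 NK markers rose (median differences 4.74 and 1.42), and 8 of 11 T-cell markers fell (median difference −0.66). Against naive cells, 2 of the 6 genes rose and 0 fell, where 7.94% of all genes rose and 9.81% fell. The difference of Gzma, −0.83 ± 0.41, was not called (adjusted p = 0.163 by limma). Without naive array 33 it was called lower (−1.28, adjusted p = 0.00291; 0.00291 to 0.597 over the 19 alternatives). Ifng, which encodes interferon gamma, rose against naive cells by 3.49 ± 0.31 and Fasl by 2.68 ± 0.31. Of 6 processing and storage genes 5 rose against naive cells, among them the cathepsins Ctsh (1.61 ± 0.53), Ctsl (1.29 ± 0.30) and Ctsc (1.18 ± 0.37), of which Ctsc activates granzymes. Of 18 myeloid markers 6 rose and of 11 T-cell markers 10 fell against naive cells, and the part of other cell types in the differences of the companion genes was not tested.

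After transfer, Stat5ca cells held more message for all 6 granule genes than control cells did. Gzma read 12.56, 12.75, 13.27 and 12.86 in transferred Stat5ca cells, against 9.04 and 8.37 in transferred control cells. The groups did not overlap, and the difference was 4.16 ± 0.41, 17.8-fold (adjusted p = 1.60e-05 by limma). Gzmb read 13.57, 13.65, 13.80 and 13.61 in transferred Stat5ca cells, against 10.42 and 10.32 in transferred control cells, 3.29 ± 0.35 higher (adjusted p = 3.04e-05). Gzmk read 11.26, 11.28, 12.25 and 11.31 in transferred Stat5ca cells, against 8.21 and 8.33 in transferred control cells, 3.25 ± 0.32 higher (adjusted p = 1.51e-05). For these 3 proteases, and for Gzmm, Prf1 and Gzmc as well, each Stat5ca array lay above both control arrays. The share of all genes without overlap was not computed.

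Gzmm read 11.05, 11.12, 11.10 and 10.86 in transferred Stat5ca cells, against 8.97 and 8.23 in transferred control cells, 2.43 ± 0.15 higher (adjusted p = 3.23e-07 by limma). Prf1 read 10.95, 11.01, 11.10 and 10.94 in transferred Stat5ca cells, against 10.31 and 9.86 in transferred control cells. The difference was 0.91 ± 0.16 (adjusted p = 0.0009). Gzmc read 7.24, 7.90, 7.00 and 7.65 in transferred Stat5ca cells, 2 of them under the background level, against 6.44 and 6.39 in transferred control cells. Its difference of 1.03 ± 0.33 (adjusted p = 0.0312) came to 0.13 counted from the background, and the call was lost without transferred control array 30 or 32 or Stat5ca array 12 or 14 (adjusted p = 0.127, 0.151, 0.0792 and 0.0692; 0.00241 to 0.151 over the 18 alternatives).

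Of the 6 genes, 6 rose and 0 fell, where 16.9% of all genes rose and 8.46% fell, and their median difference was 2.84, against 0.08 over all genes. Other killing molecules rose in 4 of 5 cases, with Fasl at 1.69 ± 0.31, Ifng at 1.56 ± 0.31 and Tnf at 1.09 ± 0.24. Of the 14 exocytosis genes 3 rose and 3 fell, namely the lysosome membrane and vesicle fusion genes Lamp2 (−1.28 ± 0.36), Snap23 (−0.91 ± 0.23) and Lamp1 (−0.81 ± 0.14). Of 6 processing genes 2 rose and 3 fell, the cathepsins Ctsh (−1.84 ± 0.53), Ctsl (−1.83 ± 0.30) and Ctsc (−1.21 ± 0.37). Among 5 inhibitors Serpinb9b rose (0.82 ± 0.23) while Serpinb1a (−2.01 ± 0.55) and Serpinb6a (−1.29 ± 0.38) fell. Il2ra (2.99 ± 0.35), Eomes (1.78 ± 0.44) and Tbx21 (0.71 ± 0.15) rose among 6 of 11 regulators.

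Some markers of other cell types differed here too. Of 18 myeloid markers 3 fell and none rose, and of 8 B-cell markers 3 fell and none rose. Of 11 T-cell markers 9 rose, and of 5 NK markers 3 rose. Of these, Klrb1c (3.40 ± 0.36) and Klre1 (3.34 ± 0.23) encode receptors of NK cells that some CD8 T cells also express, and Ncr1 read 8.40, 8.62, 10.39 and 8.84 in transferred Stat5ca cells, against 9.66 and 9.02 in transferred control cells. With the myeloid or the NK marker level as a covariate, Gzma, Gzmb, Gzmk, Gzmm and Prf1 stayed called, and the difference of Gzma was 2.57 or more over its 18 alternatives. Neither marker level overlapped between these groups, and the NK level includes Klrb1c and Klre1. These fits therefore cannot separate other cell types from Stat5ca, and the part of other cell types was not tested.

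**Figure D2:**
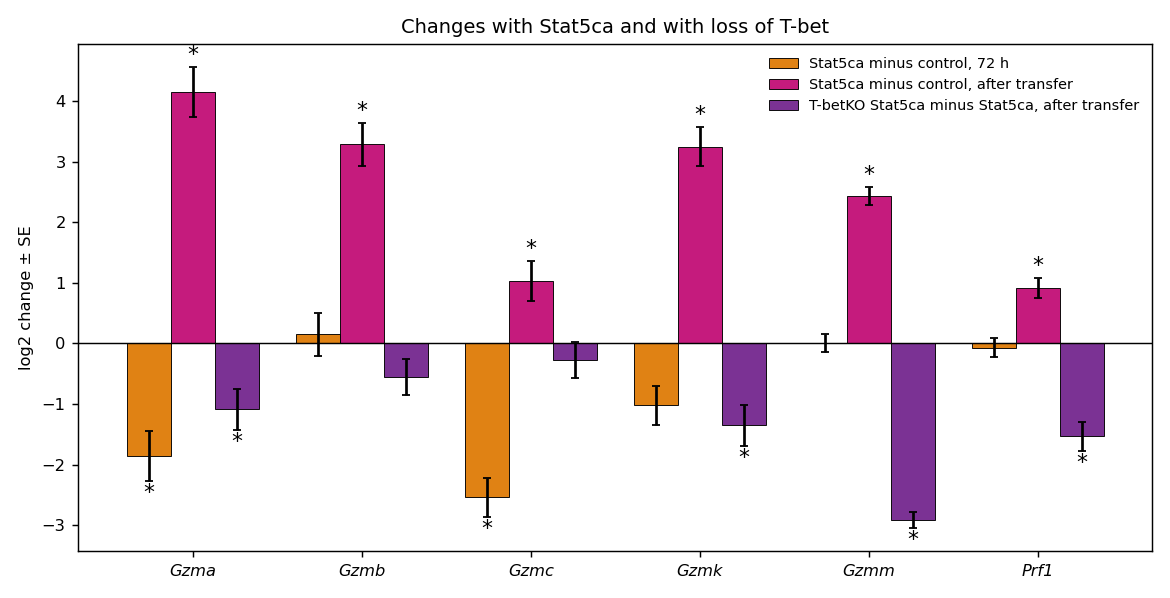
Log2 difference (vertical axis, bars with SE) of each of the 6 genes (horizontal axis) for Stat5ca minus control at 72 h, Stat5ca minus control after transfer and T-betKO Stat5ca minus Stat5ca after transfer, with asterisks on called genes. After transfer all 6 bars are above 0, from 0.91 to 4.16, at 72 h Gzma and Gzmc are called below 0, and in T-betKO cells Gzma, Gzmk, Gzmm and Prf1 are called below 0.

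The 2 Stat5ca differences were then set against each other as 1 contrast, after transfer minus at 72 h, and this difference was positive for all 6 genes. It was 6.02 ± 0.58 for Gzma (adjusted p = 2.60e-05 by limma), 4.28 ± 0.45 for Gzmk (4.99e-05), 3.57 ± 0.46 for Gzmc (0.0002), 3.14 ± 0.50 for Gzmb (0.000763), 2.43 ± 0.21 for Gzmm (2.00e-05) and 0.98 ± 0.22 for Prf1 (0.00723). For Gzmc it came to 1.97 counted from the background. Of all genes, 12.3% were called in this direction and 5.48% in the other, and the contrast uses the same arrays as the 2 comparisons it joins. The call of Prf1 was lost without Stat5ca effector array 9 (0.79, adjusted p = 0.0549) or transferred control array 32 (0.76, 0.0576), within a span of 0.00267 to 0.0990 over its 25 alternatives. Eomes (3.23 ± 0.62), Tbx21 (0.99 ± 0.22), Fasl (1.89 ± 0.44) and Tnf (1.70 ± 0.34) were called in the same direction, and Mcpt8 (3.27 ± 0.72) as well.

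Between 72 h and recovery, Stat5ca cells gained message for 4 of the 6 genes and lost it for 0, where 8.61% of all genes rose and 12.7% fell. Gzma rose by 4.43 ± 0.41 (adjusted p = 3.37e-06 by limma), Gzmm by 3.39 ± 0.15 (3.20e-09), Gzmk by 2.82 ± 0.32 (1.90e-05) and Prf1 by 2.38 ± 0.16 (1.86e-07). Gzmm read 10.86 to 11.12 in transferred Stat5ca cells, against 7.56 and 7.73 in Stat5ca effectors. Prf1 read 10.94 to 11.10 in transferred Stat5ca cells, against 8.43 and 8.82 in Stat5ca effectors. These groups overlapped in none of the 6 genes, including those not called, and the share of all genes without overlap was not computed. Gzmb differed by 0.45 ± 0.35 (adjusted p = 0.457) and Gzmc by 0.83 ± 0.33 (0.0915), or 0.13 counted from the background. Both were called with only these groups in the fit (adjusted p = 0.00332 and 0.0332), and over the 18 alternatives the adjusted p ran from 0.00332 to 0.715 for Gzmb and from 0.00676 to 0.595 for Gzmc. Of 5 NK markers 4 rose, and 12 of 18 myeloid markers. With the NK marker level as a covariate the calls of Gzma (1.41, adjusted p = 0.170) and Gzmk (2.12, 0.148) were lost, and over the 18 alternatives the adjusted p ran from 4.81e-09 to 0.170 and from 8.38e-07 to 0.148.

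Stat5ca cells lacking T-bet held less Gzmm, Prf1, Gzmk and Gzma than Stat5ca cells with T-bet. Gzmm read 8.18, 8.20 and 7.97 in T-betKO Stat5ca cells, against 11.05, 11.12, 11.10 and 10.86 in transferred Stat5ca cells. It fell by 2.92 ± 0.13, 7.55-fold (adjusted p = 8.98e-10 by limma), and it was called under all 19 alternatives, between −3.33 and −2.84. In T-betKO cells it lay 0.17 ± 0.13 from naive cells (adjusted p = 0.388). The naive arrays, at 7.84 to 8.09, overlap the T-betKO arrays.

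Prf1 read 9.14, 8.94 and 10.33 in T-betKO Stat5ca cells, against 10.94 to 11.10 in transferred Stat5ca cells, and it fell by 1.53 ± 0.24 (adjusted p = 0.000559 by limma). The highest of these, array 41, is the day 54 array, which also had less myeloid marker signal (10.81) than the day 14 arrays (12.47 and 12.41), less Mcpt8 (6.50 against 9.48 and 9.14) and an RNA integrity number of 8 against 7 and 6. Gzmk read 9.74, 9.70 and 11.08 in T-betKO Stat5ca cells, against 11.26 to 12.25 in transferred Stat5ca cells, and fell by 1.35 ± 0.34 (adjusted p = 0.00968). Here too the day 54 array was closest to the cells with T-bet. Gzma read 11.90, 11.72 and 11.70 in T-betKO Stat5ca cells, against 12.56 to 13.27 in transferred Stat5ca cells, and fell by 1.09 ± 0.34 (adjusted p = 0.0328). Gzmb read 13.03, 12.90 and 13.38 in T-betKO Stat5ca cells, against 13.57 to 13.80 in transferred Stat5ca cells, and its difference of −0.55 ± 0.30 was not called (adjusted p = 0.216), nor was that of Gzmc (−0.27 ± 0.30, adjusted p = 0.582).

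Of the 6 genes, 4 fell and 0 rose, where 13.8% of all genes fell and 7.03% rose, with a median difference of −1.22, against −0.02 over all genes. Without T-betKO arrays 39 and 40, which leaves the day 54 array alone and assumes that it varies like the other groups, Prf1 (−0.67, adjusted p = 0.0856), Gzmk (−0.45, 0.634) and Gzma (−1.16, 0.254) were not called, while Gzmm was. The call of Gzma was also lost without any 1 of T-betKO arrays 39, 40 and 41 or of Stat5ca arrays 12, 13 and 14 (adjusted p = 0.0555 to 0.112), and that of Gzmk without T-betKO array 39 (−1.14, 0.0576) or 40 (−1.12, 0.0739). RNA integrity numbers were 7, 6 and 8 in T-betKO cells, against 9, 8, 9 and 8 in transferred Stat5ca cells. With this number as a covariate the calls of Gzma (−1.22, adjusted p = 0.128 by limma) and Gzmk (−1.02, 0.180) were lost. Over the 19 alternatives the adjusted p ran from 0.00354 to 0.726 for Gzma, from 0.000316 to 0.634 for Gzmk and from 3.34e-07 to 0.112 for Prf1.

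Other killing molecules fell in 3 of 5 cases in T-betKO cells, Ifng by 1.50 ± 0.29, Fasl by 1.45 ± 0.34 and Tnfsf10, the death ligand TRAIL, by 0.65 ± 0.17. Ctsw, a lymphocyte cathepsin (−0.86 ± 0.17), and Cst7, an inhibitor of cathepsins (−0.72 ± 0.20), fell among 6 processing genes. Of the exocytosis genes 2 of 14 fell, Lyst (−0.69 ± 0.12) and the granule membrane gene Nkg7 (−0.64 ± 0.11), and 2 rose, among them Stx11 (0.62 ± 0.19). Eomes was not called (−0.38 ± 0.40, adjusted p = 0.558 by limma). Of 6 mast cell and basophil markers 3 rose and 0 fell, Cpa3 by 3.19 ± 0.63 and Mcpt4 by 3.04 ± 0.36. Of 5 NK markers 2 fell, the receptor genes Klre1 (−2.72 ± 0.20) and Klrb1c (−2.51 ± 0.35). Of 11 T-cell markers 5 fell and 1 rose (median difference −0.43), and 0 of 18 myeloid markers were called, with a median difference of 1.65. Their part in the differences of the granule genes was not tested. This comparison and the Stat5ca comparison after transfer share the 4 transferred Stat5ca arrays.

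Set against transferred control cells, T-betKO Stat5ca cells held more Gzma (3.07 ± 0.41, adjusted p = 0.000308 by limma), Gzmb (2.74 ± 0.36, 0.000288) and Gzmk (1.90 ± 0.40, 0.0133), 3 of the 6 genes, where 2.43% of all genes rose. Gzmm differed by −0.49 ± 0.16 and was not called (adjusted p = 0.106). Prf1 differed by −0.62 ± 0.29 (adjusted p = 0.285) and was not called. Gzmc, at 0.76 ± 0.36 (adjusted p = 0.297) or 0 counted from the background, was not called either. On each T-betKO array, Gzma, Gzmb, Gzmk and the uncalled Gzmc lay above both transferred control arrays, and the uncalled Gzmm lay below both. The share of all genes without such overlap was not computed.

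**Figure D3:**
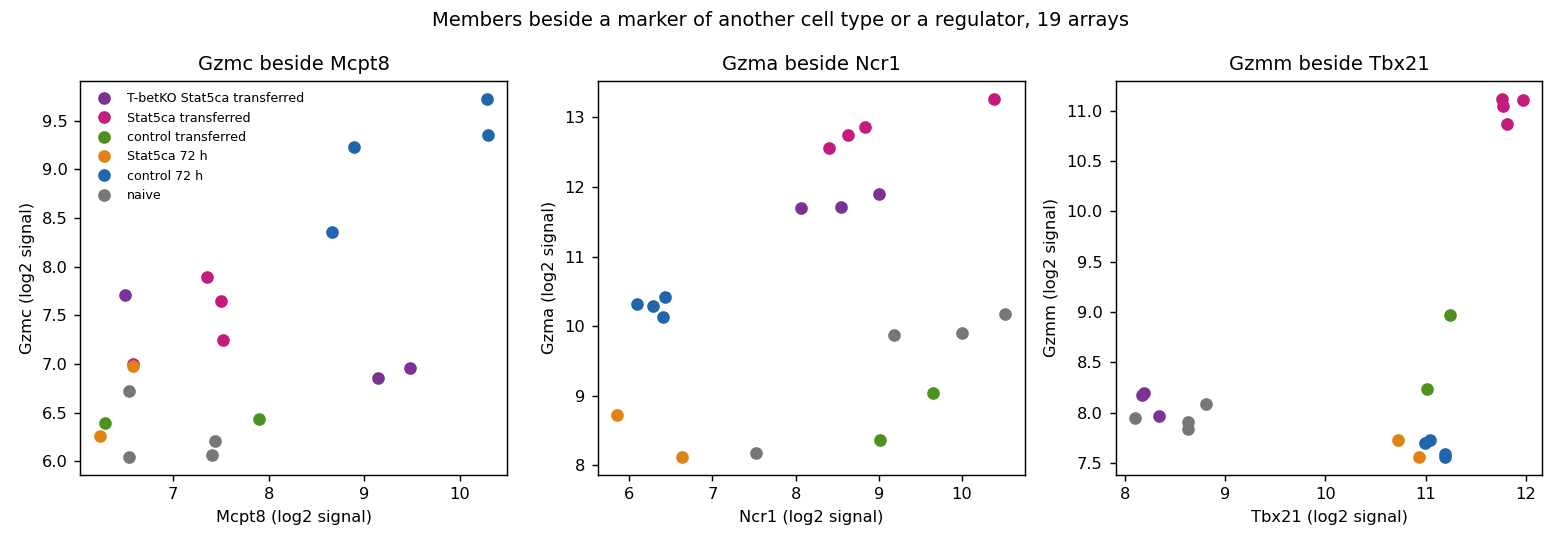
Log2 signal of Gzmc against the basophil gene Mcpt8, of Gzma against the NK receptor gene Ncr1 and of Gzmm against Tbx21, with 1 point for each of the 19 arrays, coloured by group. Gzmm is at 10.86 or higher on the 4 transferred Stat5ca arrays, where Tbx21 is at 11.77 to 11.97, and at 7.97 to 8.20 on the T-betKO arrays, where Tbx21 is at 8.18 to 8.34. Control effectors and transferred control cells, with Tbx21 at up to 11.24, have Gzmm at 7.56 to 8.97.

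Ordered by group mean, Gzma stood highest in transferred Stat5ca cells (12.86 ± 0.30, SD, n = 4), then in T-betKO Stat5ca cells (11.77 ± 0.11, n = 3), control effectors (10.29 ± 0.12, n = 4), naive cells (9.54 ± 0.92, n = 4), transferred control cells (8.70 ± 0.47, n = 2) and Stat5ca effectors (8.42 ± 0.43, n = 2). The upper 2 steps of that order were called, and the arrays of the lower 3 neighbouring pairs overlapped. For Gzmb, transferred Stat5ca cells, Stat5ca effectors, T-betKO cells and control effectors lay between 13.06 and 13.66 with no called step among them, above transferred control cells (10.37 ± 0.07) and naive cells (8.03 ± 0.82). Gzmk followed the order transferred Stat5ca (11.52 ± 0.48), T-betKO (10.17 ± 0.79), control effector (9.73 ± 0.55), Stat5ca effector (8.71 ± 0.50), naive (8.49 ± 0.10) and transferred control cells (8.27 ± 0.08), with its top step alone called. Prf1 was highest in transferred Stat5ca cells (10.94 to 11.10), followed by transferred control cells (10.09 ± 0.32), naive cells (10.07 ± 0.12), T-betKO cells (9.47 ± 0.75), control effectors (8.70 ± 0.25) and Stat5ca effectors (8.63 ± 0.27), with the first step and the step from T-betKO cells to control effectors called. Gzmm had a single called step, between transferred Stat5ca cells (11.03 ± 0.12) and transferred control cells (8.60 ± 0.52). Gzmc stood highest in control effectors (9.16 ± 0.58), and its step to transferred Stat5ca cells (7.45 ± 0.40) was its single called step. Of 30 neighbouring pairs over the 6 genes, 9 were called. For the pairs not described above, the share of all genes called in either direction was 39.1% for T-betKO cells against control effectors, 30.9% against Stat5ca effectors, 22.5% against naive cells and 3.4% against transferred control cells. It was 29.1% for transferred Stat5ca cells against control effectors, 33.1% for transferred control cells against Stat5ca effectors and 28.6% for Stat5ca effectors against naive cells.

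**Figure D4:**
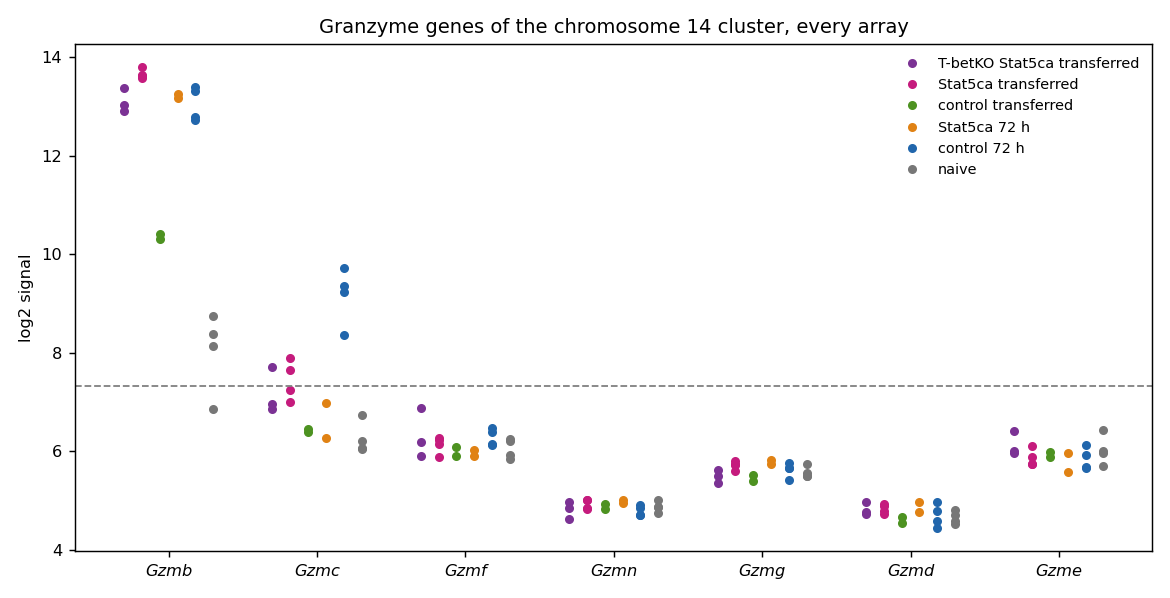
Log2 signal (vertical axis) of Gzmb, Gzmc and the other chromosome 14 granzymes (horizontal axis) on each array, coloured by group, with the background level of 7.32 dashed. Gzmb is above it on 18 of 19 arrays. Gzmc is above it on all 4 control effector arrays, on transferred Stat5ca arrays 12 and 14 and on T-betKO array 41. Gzmd, Gzme, Gzmf, Gzmg and Gzmn stay between 4.44 and 6.88 on all arrays.

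Some genes followed the same profile over the 19 arrays, taken from 6797 genes that range over at least 1 log2 unit, as a description of these arrays, which share their groups. For Gzma these were Gzmk (r = 0.876), Stk32c and Ptpn9, for Gzmk Fhl2 (r = 0.947), Stk32c and Septin11, and for Gzmb Lgals1 (r = 0.979), Mdfic and Acot7. Gzmc ran with Nup205 (r = 0.953), Ipo5 and Suv39h2, Gzmm with Ptger3 (r = 0.959), Klre1 and Klra5, and Prf1 with Sema4a (r = 0.967), Hcst and Nat10. Among the 6 genes, Prf1 and Gzmm ran together (r = 0.799), while Prf1 ran against Gzmc (r = −0.371) and had an r of −0.144 with Gzmb. The NK marker Klrb1c had an r of 0.914 with Gzmm, 0.848 with Prf1, 0.811 with Gzma and 0.743 with Gzmk. Its r was 0.285 with Gzmb and −0.176 with Gzmc. Gzma had an r of 0.33 with Ncr1. The part of NK cells was not tested.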

How the data were processed

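RNA of purified mouse CD8 T cells was measured on 19 arrays (0.125 µg of RNA on each). As deposited, the 35557 probe sets per array carry log2 signals, made with Affymetrix Expression Console per the submitters' processing notes, with a version and normalization not given in the sources used here. Their range, 3.131 to 14.936, shows the log2 scale, and the number of arrays limits the precision. RNA integrity numbers were 6 to 10.

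Probe sets with 1 gene (21789) were used, the brightest per gene, giving 19938 genes (999 with more than 1 probe set). limma 3.58.1 in R 4.3.3 (lmFit, eBayes, constant prior) fitted the 16 TCRP1A arrays together, or all 19 for T-betKO cells, without covariates. A call needed an adjusted p (Benjamini-Hochberg over all genes, per comparison) under 0.05, and calling was tested on simulated data for Stat5ca against control cells after transfer, where 27, 48, 49 and 50 of 50 genes changed by 0.5, 1, 2 and 3 on the log2 scale were called, and 14 of 19738 unchanged genes. The simulated noise was independent and normal with 1 spread per gene, as the fit assumes. The outcome therefore does not measure false calls on the real arrays, and the fit of all 19 was not simulated. Errors of differences are SE and of group means SD. Differences with a group mean under 7.32 were also counted from it.

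Whether arrays of a group stem from separate animals or cultures is not in the labels, and p-values therefore cover only the spread among the arrays. The members and gene lists were chosen with earlier results of these data known. Named companion genes are up to 3 called, non-overlapping genes per list with the largest differences, and genes of like profile are the 3 with the highest correlation. Vamp2, Serpina3g, Lck and Klra4 were among the listed genes with no probe set of their own. Covariate and left-out-array fits added after the data were seen are named in the closing section. Tables were made with Python 3.11.15, pandas 2.3.3, numpy 2.4.6, Biopython 1.88 and matplotlib 3.10.9.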

Additional observations from a re-analysis of the deposited data

Results flagged for a closer look

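Among 18 tests of whether 1 array of a group of 4 lay apart from the other 3, 2 did, and chance flags about 1 in 20 groups. In naive cells, Gzma read 8.18 on array 33, against 9.88 to 10.17 on the others. In transferred Stat5ca cells, Gzmk read 12.25 on array 13, against 11.26 to 11.31 on the others. The Stat5ca difference of all 6 genes was more positive after transfer than at 72 h, as tested by the difference of the differences: by 6.02 for Gzma, 4.28 for Gzmk, 3.57 for Gzmc, 3.14 for Gzmb, 2.43 for Gzmm and 0.98 for Prf1 on the log2 scale.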

How the results depend on the processing

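No paired analysis was possible because the labels do not say which arrays share an animal or culture. Of 954 values of single genes under the alternatives, 38 lost the call and 17 gained one. The sign changed in 22, of which 21 were called neither in the reported fit nor in the alternative, such as Gzmb in transferred Stat5ca cells against Stat5ca effectors (−1.96, adjusted p = 0.0719, with the NK covariate). The exception was Gzma in T-betKO against Stat5ca cells, which was 0.18 (adjusted p = 0.726) with the NK marker level as a covariate, a marker level that itself moved with the groups. The cause was not tested. For transferred control cells against naive cells, 2 genes were called, against 0 when the fit held only the compared groups (2 at an unadjusted p under 0.05 by limma), 1 with the myeloid covariate and 1 to 3 with 1 array left out. For Stat5ca against control effectors, 2 were called, against 0 with the mast cell and basophil covariate (1 unadjusted), 1 without control arrays 1 and 4 and 1 to 3 with 1 array left out. For T-betKO against Stat5ca cells, 4 were called, against 2 with the RNA integrity number, the mast cell and basophil marker level or the NK marker level as a covariate, 1 without T-betKO arrays 39 and 40 and 2 to 4 with 1 array left out. For transferred Stat5ca cells against Stat5ca effectors, 4 were called, against 2 with the NK covariate, 6 with only the compared groups in the fit and 5 with array weights. Over all genes, counts of calls moved by over 1.5 times: 1140 against 63 to 4604 for Stat5ca against control effectors, 3538 against 323 to 5767 for transferred control against naive cells, 7476 against 3873 to 8726 for transferred control cells against control effectors, 5058 against 2716 to 7351 for transferred Stat5ca against control cells, 4243 against 693 to 6790 for transferred Stat5ca cells against Stat5ca effectors, 3549 against 1985 to 6096 for the difference of the Stat5ca differences and 4155 against 563 to 6870 for T-betKO against Stat5ca cells. The 2 arrays of the smallest groups limit the precision. The NK and the mast cell and basophil covariates and the fits without control arrays 1 and 4 or T-betKO arrays 39 and 40 were chosen after seeing the data. The other alternatives were 2 scalings, a filter on dim genes, means over probe sets, other arrays in the fit, an intensity trend, array weights, the RNA integrity number, the myeloid marker level, naive arrays 34 and 36 left out, and each array left out in turn.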
